A study of Mus musculus with 6 samples.

Results

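The Hox genes of the 4 mouse clusters were followed in cultured bone cells, sorted as Prx1 lineage, from mice with intact or floxed Zeb1 alleles. Members were all rows of the deposited gene table annotated as protein coding and named Hoxa, Hoxb, Hoxc or Hoxd with a paralogue number. They came to 40 rows with 39 symbols (Hoxd4 had 2 rows) of 54532 genes: 11 in Hoxa, 10 in Hoxb, 9 in Hoxc and 10 in Hoxd. Of these, 21 reached 1 FPKM (fragments scaled to gene length and library size) in at least 3 of the 6 libraries and were tested. The other 19 stayed under that filter, and 5 of the 19 had no fragment in any library. The cells grew out of collagenase-digested femur and tibia chips and were sorted for reporter fluorescence. Prx1-Cre, a Cre of limb bud mesenchyme, and the ROSA-YFP reporter that it switches on were present in every mouse, controls included. The 3 WT libraries came from Zeb1wt/wt mice and the 3 Zeb1Prx1 libraries from Zeb1fl/fl mice, whose Zeb1 alleles are recombined only where Cre was active. All were labelled untreated compact bone cells, the labels give no age, and they do not say whether the libraries of a genotype came from separate mice or cultures. The p-values therefore reflect no more than the variation among the libraries of a genotype, and how much of it is technical is not known.

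Hox genes encode homeodomain transcription factors and stand in clusters in which the order along the chromosome matches the order of expression along the body axis. Low paralogue numbers lie at the anterior end and high numbers at the posterior end, and genes with the same number in different clusters are close relatives. In the limb, the posterior genes of Hoxa and Hoxd pattern the skeleton from proximal to distal: paralogue group 10 is needed for the upper segment (femur or humerus), group 11 for the next (tibia and fibula, or radius and ulna) and group 13 for hand and foot. Cells of adult bone keep a Hox profile that reflects where they arose. Hox proteins bind DNA with Pbx and Meis cofactors, and Polycomb and Trithorax proteins keep the clusters silent or active.

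Group 9 carried the smallest p-values, and its Hoxb9 was the lower in Zeb1Prx1 libraries while its close relative Hoxc9 overlapped between genotypes, so the homeoboxes of these 2 genes are shown to let the relatives be compared. The homeobox codes for the 60 residues that hold DNA. Each sequence has 180 bases, read 5′ to 3′ on the coding strand from GRCm38 (mm10) with the coding exons of GENCODE M21. In Hoxb9 (chr11:96274659-96274838, plus strand) capitals mark the 18 bases for the part of the DNA-contacting helix by which the homeobox was found. In Hoxc9 (chr15:102983930-102984109, plus strand) capitals mark each base that differs from Hoxb9.
Hoxb9: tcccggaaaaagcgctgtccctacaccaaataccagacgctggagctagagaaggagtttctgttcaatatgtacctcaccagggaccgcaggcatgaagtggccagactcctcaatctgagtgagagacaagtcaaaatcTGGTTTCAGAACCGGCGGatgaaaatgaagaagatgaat
Hoxc9: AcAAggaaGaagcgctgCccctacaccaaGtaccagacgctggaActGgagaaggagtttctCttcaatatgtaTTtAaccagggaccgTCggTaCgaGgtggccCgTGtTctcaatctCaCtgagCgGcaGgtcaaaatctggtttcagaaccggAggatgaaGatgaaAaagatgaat
Hoxc9 differed from Hoxb9 at 29 of the 180 bases, which left 83.9% identical. Over whole transcripts, the longest stretch shared exactly by 2 members of different clusters had 52 bases (Hoxa6 and Hoxb4) among 569 pairs, and that of Hoxb9 and Hoxc9 had 50. Reads were 150 bases long on each end.

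Promoter windows of 250 bases before to 50 bases after the start site were held for 22 of the 39 symbols in RefSeq (GRCm38.p6), with 24 windows. In Hoxc only Hoxc4 had a window, and in Hoxb only Hoxb1, Hoxb4 and Hoxb8, so Hoxb9 had none. The Hox counts below are thus mostly of Hoxa and Hoxd. Zeb1 is known to bind the E-box CAGGTG. Those letters, searched on both strands, were in 20.2% of all 32851 windows and in 0 of the 24 Hox windows. The general E-box CANNTG, which includes CAGGTG, was in 72.3% of all windows and 17 of the 24. TGATNNAT, a form bound by Hox and Pbx together, was in 8.85% of all windows and 4 of the 24. The 250 bases before the start are shown for 2 genes whose genotypes did not overlap, in opposite directions: Hoxa9 (chr6:52227371-52227620, minus strand) and Hoxb8 (chr11:96281655-96281904, plus strand). Capitals mark the CANNTG match in Hoxa9 and the TGATNNAT match, on the other strand, in Hoxb8.
Hoxa9 promoter: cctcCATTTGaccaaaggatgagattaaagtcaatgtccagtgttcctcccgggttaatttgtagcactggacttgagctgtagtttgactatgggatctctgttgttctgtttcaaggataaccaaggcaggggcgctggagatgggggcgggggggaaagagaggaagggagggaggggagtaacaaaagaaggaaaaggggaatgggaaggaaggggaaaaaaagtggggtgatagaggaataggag
Hoxb8 promoter: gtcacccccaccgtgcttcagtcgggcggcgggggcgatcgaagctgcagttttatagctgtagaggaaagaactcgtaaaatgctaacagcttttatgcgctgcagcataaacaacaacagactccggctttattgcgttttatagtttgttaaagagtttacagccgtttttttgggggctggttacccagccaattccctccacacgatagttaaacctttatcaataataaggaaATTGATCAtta
A match describes the letters only, and binding was not measured.

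The library checks came first. The libraries held 14724357 to 18354894 fragments assigned to genes, so a count of 3 fragments, the most that a count of 0 allows, equals 0.163 to 0.204 CPM, that is, scaled to the library total. Such limits, and counting intervals below, leave out all error other than counting. Zeb1 had 6.61, 10.3 and 7.12 FPKM in WT libraries, against 1.92, 1.59 and 2.84 in Zeb1Prx1 libraries, so each mutant library was below each WT library. Xist, the X-inactivation transcript of female cells, had 26.8, 40.4 and 32.9 FPKM in WT libraries, against 1.47, 0.00309 and 12.6 in Zeb1Prx1 libraries, and the labels give no sex, so genotype and sex cannot be told apart. All 12 stromal markers passed the filter, with Prrx1, the gene whose enhancer drives the Cre, at 18.1 to 30.5 FPKM. All 18 macrophage markers passed as well, and none was at 0. Their sum was 12967, 15822 and 14965 FPKM in WT libraries, against 10675, 21541 and 12562 in Zeb1Prx1 libraries. Lyz2 made up most of it, with means of 9542 FPKM in WT and 10853 in Zeb1Prx1. The median of the 18 markers was 241, 262 and 276 FPKM in WT libraries, against 193, 194 and 155, without overlap. The stromal sums were 2282, 3588 and 3303 FPKM, and 5337, 3110 and 6098. The median of the 12 stromal markers was 21.6, 32.5 and 33.5 FPKM in WT libraries, against 38.7, 29.5 and 219. It was above the macrophage median only in Zeb1Prx1 replicate 3. Every library of sorted cells thus held macrophage RNA, with a macrophage sum above the stromal sum in each. The 16 chondrocyte markers summed to 15.3, 208 and 156 FPKM in WT libraries, against 562, 153 and 2454 in Zeb1Prx1 libraries. The 12 osteoblast markers summed to 1857, 4173 and 4039 FPKM, against 2863, 4526 and 2935, most of it Spp1 (means of 3313 and 3315). The 7 endothelial markers summed to at most 3.07 FPKM and the 10 lymphoid, erythroid and neutrophil markers to at most 1.14.

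**Figure D1:**
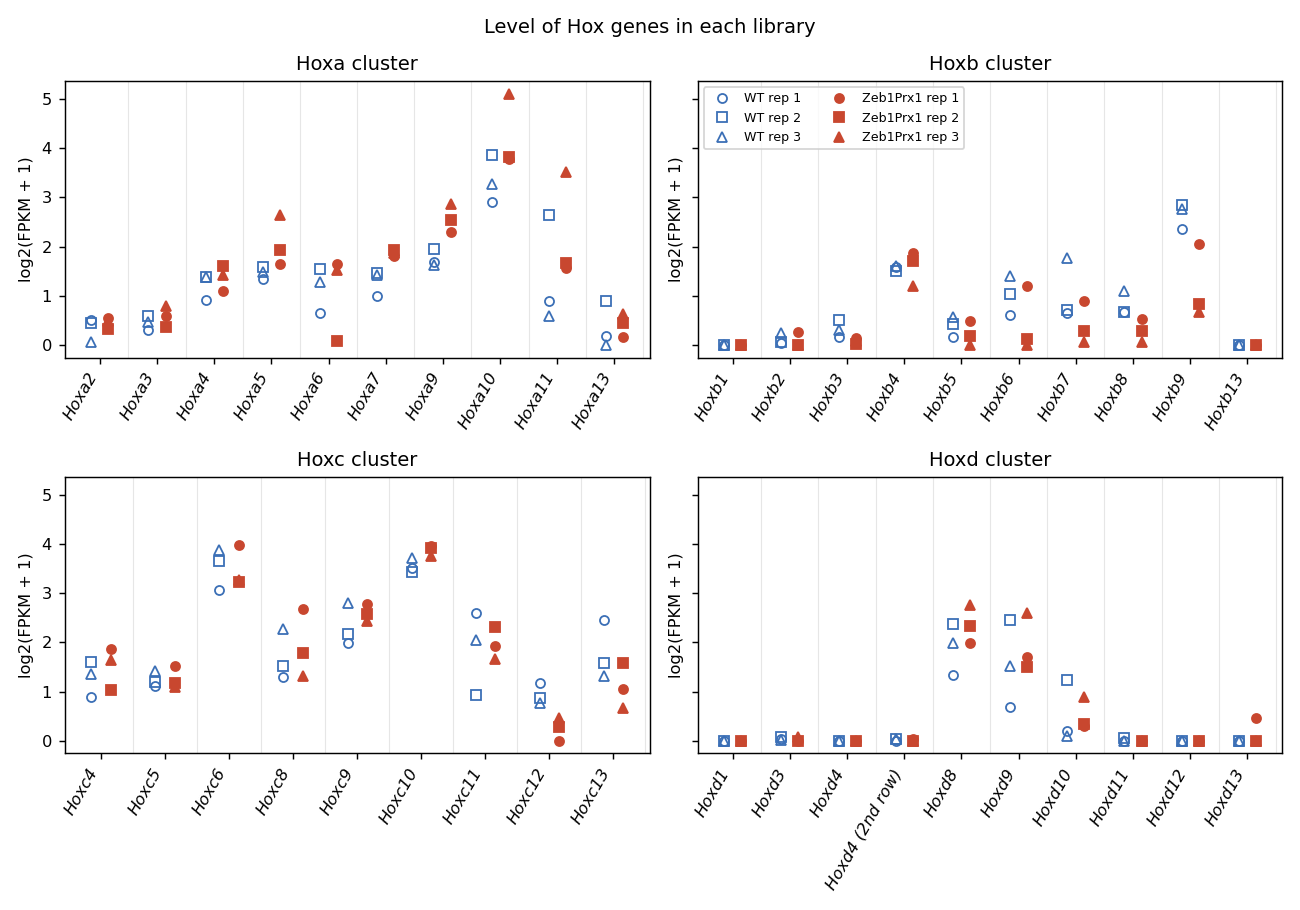
Level of Hox genes as log2(FPKM + 1), with genes in paralogue order in 4 panels by cluster, WT libraries as open blue and Zeb1Prx1 libraries as filled red symbols, and the shape giving the replicate. Hoxa10, Hoxc10 and Hoxc6 stand highest, most of Hoxd lies near 0, and Hoxb9 is lower in the 3 Zeb1Prx1 libraries.

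Expression was carried by Hoxc and the 5′ end of Hoxa. The filter was passed by 8 of 11 members in Hoxa, 8 of 9 in Hoxc, 3 of 10 in Hoxb and 2 of 10 in Hoxd. By paralogue number, 4 of 13 passed in groups 1 to 4, 8 of 11 in groups 5 to 8 and 9 of 16 in groups 9 to 13. FPKM is per gene length, which for nearly all members was all annotated exon bases, so the order between genes also depends on the annotation. Hoxa9 and Hoxb9 had 650 and 666 fragments in WT libraries but means of 2.38 and 5.35 FPKM, at lengths of 5580 and 2574 bases. In WT, Hoxc6 (10.9 ± 3.18 FPKM, SD, n = 3), Hoxc10 (10.8 ± 1.24) and Hoxa10 (9.56 ± 3.58) headed the order, within each other's spread. Hoxb9 followed (5.35 ± 1.06) and then Hoxc9 (4.16 ± 1.60), again within their spread. In Zeb1Prx1 libraries the order began with Hoxa10 (19.8 ± 11.9), Hoxc10 (13.8 ± 1.02) and Hoxc6 (10.6 ± 3.60), again within their spread. Hoxc10 was above Hoxa10 in 2 of the 3 libraries, and the Hoxa10 mean was 12.9 FPKM without Zeb1Prx1 replicate 3. Hoxb9 (1.50 ± 1.42) had gone from rank 4 to rank 17. The 5 members without a fragment were Hoxb1, Hoxb13, Hoxd1, Hoxd12 and 1 row of Hoxd4. Hoxd13 was seen only in Zeb1Prx1 replicate 1, with 15 fragments (0.376 FPKM), and Hoxa13 had at most 0.868 FPKM. These 2 genes of hand and foot were thus low or at 0 in these long bone cells.

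The comparison asked how Hox levels differed between Zeb1Prx1 and WT cells. Limma on log2(FPKM + 1) called 0 of the 21 tested members after adjustment over all 12534 tested genes, of which 0% were called, and voom also called 0. At an unadjusted p under 0.05, Hoxa9 and Hoxa7 were higher (2 of 21, against 8.15% of all genes) and Hoxb9 lower (1 of 21, against 6.98%). The 3 Zeb1Prx1 libraries all lay above the 3 WT libraries for 5 of 21 members, among them Hoxa5, Hoxa7, Hoxa9 and Hoxc10 (against 12.6% of all genes) and all below for Hoxb9 (1 of 21, against 11.8%). The count of 5 became 8 without WT replicate 2, and the count of 1 became 2 without WT replicate 3, Zeb1Prx1 replicate 1 or Zeb1Prx1 replicate 2. Leaving out a library can only keep or raise such counts, and the share over all genes was not counted for these. The log2 change was above 0 for 16 of 21 members, against 51.9% of all genes, with a median of 0.23 against 0.017. Without WT replicate 1 the members' median was 0.038. In bulk RNA, fewer cells of a type and less RNA per cell cannot be told apart.

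**Figure D2:**
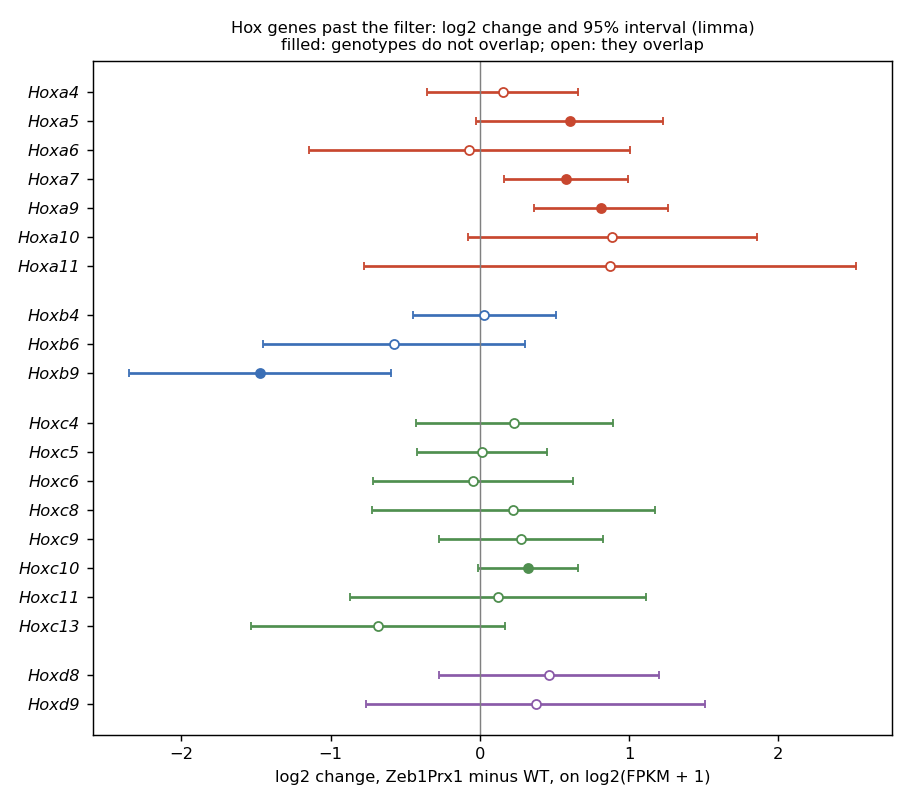
Log2 change (Zeb1Prx1 minus WT on log2(FPKM + 1)) of tested Hox genes with the 95% interval from limma, coloured by cluster, filled where the genotypes do not overlap. The intervals of Hoxa7, Hoxa9 and Hoxb9 leave out 0, before any adjustment for the number of genes.

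The clusters differed in direction. Over all rows with a fragment, filtered or not, the Zeb1Prx1 mean was the higher for 11 of 11 Hoxa rows, against 48.5% of all 27230 genes with a fragment. It was the lower for 7 of 8 Hoxb rows, against 51.5% of all genes. Leaving out 1 library at a time gave 8 to 11 Hoxa rows and 6 to 8 Hoxb rows. The means of Hoxa6 and Hoxa13 were only 1.04-fold higher each, and the log2 change of Hoxa6 was below 0 (-0.070). Hoxc divided into 5 higher and 4 lower and Hoxd into 3 higher and 4 lower. Genes of a cluster are neighbours in the same cells, so these rows are not independent. The difference between clusters itself was not tested.

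Hoxa9, a posterior gene of the Abd-B type known from limb, vertebra and blood progenitors, had the smallest p of the members. Hoxa9 (ENSMUSG00000038227, chr6:52223100-52231089, minus strand) had 2.23, 2.86 and 2.07 FPKM in WT libraries, against 3.93, 4.79 and 6.28 in Zeb1Prx1 libraries, from 177 to 535 fragments per library. Each mutant library lay above each WT library. The mean went from 2.38 ± 0.416 to 5.00 ± 1.19 FPKM (2.10-fold), with a log2 change of 0.81 (SE 0.19, 95% interval 0.37 to 1.26, limma adjusted p = 0.264). With library weights it passed (limma adjusted p = 0.0463), in a fit that called 2.14% of genes higher, and with voom it did not (adjusted p = 0.274). The weights of Zeb1Prx1 replicates 1, 2 and 3 were 0.655, 0.226 and 2.82. The mutant side of the weighted fit thus rested mostly on replicate 3, here the highest.

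Hoxa7, a trunk and limb gene of the middle of the cluster, had 0.988, 1.74 and 1.68 FPKM in WT libraries, against 2.49, 2.82 and 2.64 in Zeb1Prx1 libraries. The genotypes did not overlap and the mutant libraries were close together. Its log2 change was 0.58 (SE 0.18, limma adjusted p = 0.275). Opposite-strand exons of Hoxaas3 cover 20.4% of the Hoxa7 exons, and the strand setting of the counting is not known here.

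Hoxa5, which acts in the cervicothoracic region and lung, had 1.54, 2.01 and 1.80 FPKM in WT libraries, against 2.12, 2.84 and 5.27 in Zeb1Prx1 libraries. All mutant libraries were above the WT range, replicate 3 by most. The log2 change was 0.60 (SE 0.26, limma adjusted p = 0.337) and 0.32 without Zeb1Prx1 replicate 3.

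Hoxa10, a group 10 gene of the upper limb segment, had the highest Zeb1Prx1 mean, which rested on replicate 3. It had 6.55, 13.5 and 8.60 FPKM in WT libraries, against 12.7, 13.1 and 33.6 in Zeb1Prx1 libraries. WT replicate 2 reached the level of the first 2 mutant libraries, and Zeb1Prx1 replicate 3 stood far above the rest. The log2 change was 0.89 (SE 0.41, limma adjusted p = 0.35) with all libraries and 0.45 without Zeb1Prx1 replicate 3.

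Hoxa11, the group 11 gene of the next segment, had 0.860, 5.26 and 0.513 FPKM in WT libraries, against 1.96, 2.18 and 10.5 in Zeb1Prx1 libraries. Its 2 high values were those of WT replicate 2 and Zeb1Prx1 replicate 3, so the genotypes overlapped. The log2 change of 0.87 had an SE of 0.70 (limma adjusted p = 0.532) and ranged with the libraries kept: 0.24 when Zeb1Prx1 replicate 3 was dropped, 0.48 when WT replicate 3 was and 1.51 when WT replicate 2 was. Opposite-strand exons of Hoxa11os cover 35.0% of the Hoxa11 exons. The remaining tested members of the cluster, Hoxa4 (log2 change 0.15) and Hoxa6 (-0.070), overlapped.

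Hoxb showed the reverse order, led by Hoxb9, a gene of thorax and limb bud. Hoxb9 (ENSMUSG00000020875, chr11:96271457-96276595, plus strand) had 4.14, 6.14 and 5.77 FPKM in WT libraries, against 3.14, 0.776 and 0.585 in Zeb1Prx1 libraries. Zeb1Prx1 replicate 1 was only just under the lowest WT library, whereas the other 2 were far below, with 36 and 23 fragments. The mean went from 5.35 ± 1.06 to 1.50 ± 1.42 FPKM, 3.56-fold lower, with a log2 change of -1.47 (SE 0.37, 95% interval -2.35 to -0.59, limma adjusted p = 0.264). It passed with library weights (limma adjusted p = 0.0481), in a fit that called 1.43% of genes lower, and not with voom (adjusted p = 0.274). On the mutant side the weighted fit again rested mostly on Zeb1Prx1 replicate 3, here the lowest.

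Its neighbours within the cluster lay mostly under the filter and are named here after their values were seen. In Hoxb6, Hoxb7 and Hoxb8, as in Hoxb9, Zeb1Prx1 replicate 1 was the highest and replicate 3 the lowest mutant library. Hoxb8 had 0.601, 0.592 and 1.14 FPKM in WT libraries, against 0.449, 0.211 and 0.0497 in Zeb1Prx1 libraries. The genotypes did not overlap, and the summed fragments were 99 against 31, a ratio of 0.299 after scaling (95% counting interval 0.193 to 0.451). Hoxb7 had 0.566, 0.632 and 2.40 FPKM against 0.846, 0.216 and 0.0424, which overlapped through Zeb1Prx1 replicate 1. Hoxb6, which passed the filter, had 0.529, 1.06 and 1.62 FPKM against 1.30, 0.0847 and 0, the last with no fragment (log2 change -0.58, SE 0.37, limma adjusted p = 0.449). Hoxb3 was also lower without overlap (52 fragments in WT and 12 in Zeb1Prx1), but 52.9% of its exon bases lie opposite exons of Hoxb3os. Hoxb4, the third member tested, had 1.95 ± 0.118 and 2.07 ± 0.693 FPKM, a log2 change of 0.031 that turned to -0.080 with libraries scaled to an equal FPKM sum.

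The summed Hoxb level was 8.08, 11.1 and 13.9 FPKM in WT libraries, against 9.08, 3.71 and 2.04 in Zeb1Prx1 libraries, so replicate 1 lay within the WT range. As a share of all Hox FPKM in a library it was 13.1%, 12.7% and 16.8% in WT libraries and, without overlap, 9.76%, 4.68% and 1.81% in Zeb1Prx1 libraries. The Hoxa share was 25.8%, 36.7% and 23.7% in WT libraries and, with overlap, 31.3%, 38.8% and 58.1% in Zeb1Prx1 libraries. These shares sum to the whole within a library, so a higher share of 1 cluster lowers the others. Of the 18 macrophage markers, 15 had log2 changes below 0 (against 48.1% of all genes), 6 of them at an unadjusted p under 0.05 (against 6.98%) and 0 called by limma or voom. The part of macrophage RNA in the Hoxb values was not tested.

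**Figure D3:**
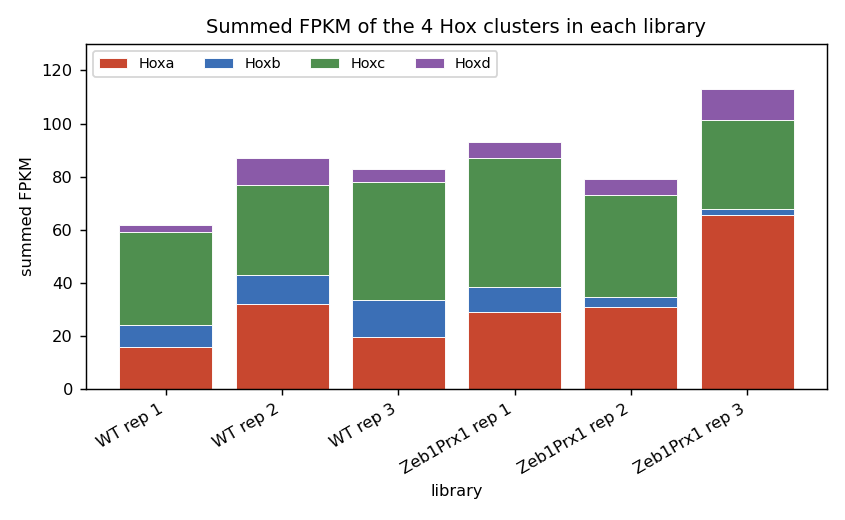
Summed FPKM of the members of each Hox cluster, stacked by library from 0. The Hoxb segment shrinks to 3.71 and 2.04 FPKM in Zeb1Prx1 replicates 2 and 3, and the Hoxa segment of Zeb1Prx1 replicate 3, at 65.7 FPKM, exceeds that of every other library.

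Hoxc made the largest contribution in WT, at 35.3, 33.9 and 44.3 FPKM, against 49.0, 38.6 and 33.5 in Zeb1Prx1 libraries, which overlapped. Hoxc10, a hindlimb and lumbosacral gene, had 10.5, 9.81 and 12.2 FPKM in WT libraries, against 14.5, 14.2 and 12.6 in Zeb1Prx1 libraries. The genotypes did not overlap, but the gap between WT replicate 3 and Zeb1Prx1 replicate 3 was small. Its log2 change was 0.32 (SE 0.14, limma adjusted p = 0.336), and 8.70% of its exon bases are shared with Hoxc5 on the same strand. Hoxc11 had 5.06, 0.901 and 3.13 FPKM against 2.83, 4.01 and 2.17, with the WT libraries spread around all mutant ones (log2 change 0.12, SE 0.42).

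The 5′ end of Hoxc leaned the other way. Hoxc13, which acts in hair and nail, had 4.53, 2.01 and 1.48 FPKM in WT libraries, against 1.09, 2.01 and 0.585 in Zeb1Prx1 libraries, which overlapped. Its log2 change was -0.68 (SE 0.36, limma adjusted p = 0.385), and -0.35 without WT replicate 1, the highest library. Its neighbour Hoxc12, under the filter and named after its values were seen, had 1.27, 0.820 and 0.695 FPKM against 0, 0.215 and 0.381, without overlap. That rested on 48 fragments against 10, a scaled ratio of 0.199 (95% counting interval 0.0896 to 0.398). Of the other tested members, Hoxc4, Hoxc8 and Hoxc9 had log2 changes of 0.23, 0.22 and 0.28, Hoxc5 of 0.017 and Hoxc6 of -0.044, and all overlapped. Hoxc6, at about the same level as Hoxc10, had a 95% interval of -0.71 to 0.63, which leaves room for changes in either direction.

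Hoxd was low. Only Hoxd8 and Hoxd9, next to each other in the cluster, passed the filter. Hoxd8 had 1.51, 4.20 and 2.99 FPKM in WT libraries, against 2.99, 4.06 and 5.75 in Zeb1Prx1 libraries, and Hoxd9 had 0.614, 4.48 and 1.89 against 2.24, 1.84 and 5.03. Both overlapped, with WT replicate 1 lowest and Zeb1Prx1 replicate 3 highest. Their log2 changes were 0.46 (SE 0.31) and 0.37 (SE 0.48), and without WT replicate 1 they were 0.18 and -0.060. Hoxd10, the counterpart of Hoxa10, stayed under the filter at 0.0717 to 1.36 FPKM, with the most fragments in WT replicate 2 (38) and Zeb1Prx1 replicate 3 (24). Hoxd11, the counterpart of Hoxa11, had 3 fragments in all, at the limit that a count of 0 allows.

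Summed by paralogue number, groups 5, 10 and 12 were among those that separated the genotypes, not all in the same direction, and group 9 did not. Of single tested genes, 12.6% were higher and 11.8% lower without overlap, and no such share was counted for sums. Group 10 (Hoxa10, Hoxc10 and Hoxd10) came to 17.2, 24.7 and 20.9 FPKM in WT libraries, against 27.4, 27.7 and 47.0 in Zeb1Prx1 libraries, all above the WT range. Group 5 was also higher, at 2.83, 3.64 and 3.96 FPKM against 4.38, 4.23 and 6.39. Group 12, which here is Hoxc12 alone and under the filter, was lower. Group 9 came to 14.2 ± 3.73 FPKM in WT and 14.6 ± 2.04 in Zeb1Prx1 (n = 3 each), although Hoxa9 and Hoxb9 differed in opposite directions within it. Group 11 came to 5.91, 6.21 and 3.64 FPKM against 4.79, 6.19 and 12.7, which overlapped, and group 13 to 4.66, 2.88 and 1.48 against 1.59, 2.37 and 1.14, which overlapped too. By class, the median log2 change of tested members was 0.19 in groups 1 to 4 (4 of 4 above 0), 0.12 in groups 5 to 8 (5 of 8) and 0.32 in groups 9 to 13 (7 of 9), beside 0.017 over all genes. Without WT replicate 1 the first of these was 0.036. The middle class ranged from -0.11 without Zeb1Prx1 replicate 1 to 0.51 without WT replicate 3.

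**Figure D4:**
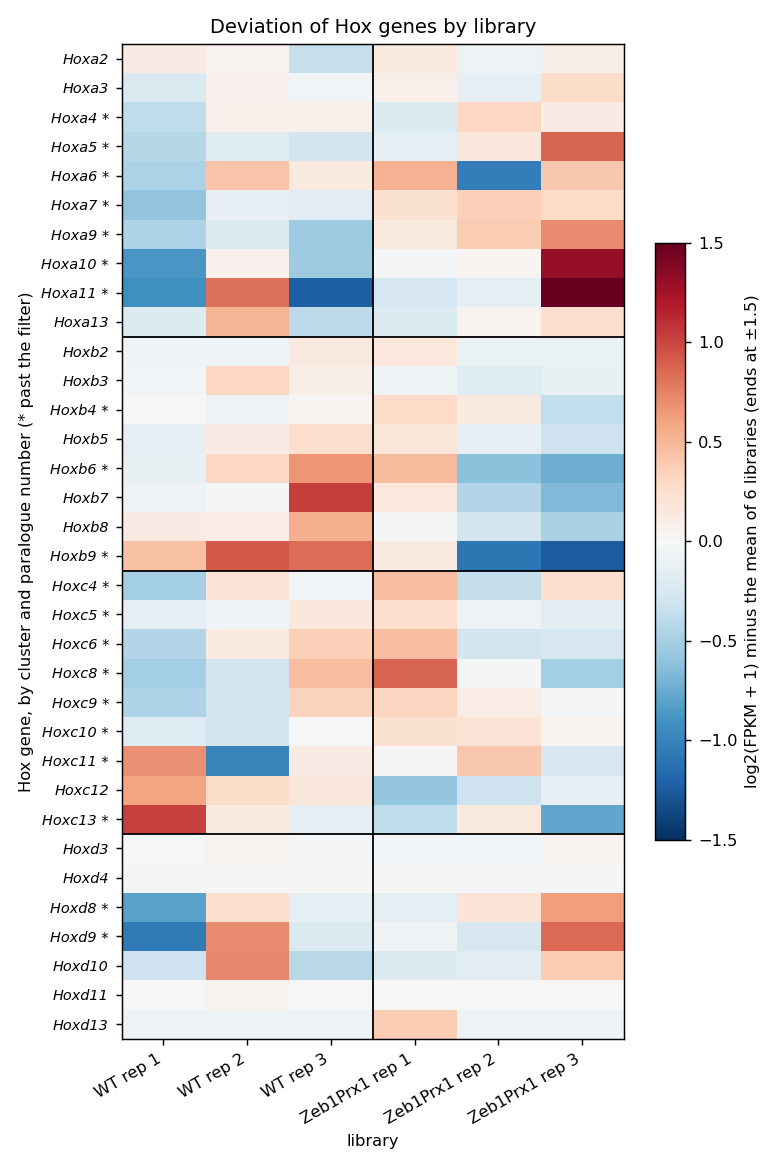
Deviation of Hox genes with a fragment from its mean over the 6 libraries, as log2(FPKM + 1), with genes in rows by cluster, libraries in columns and colours ending at ±1.5. WT replicate 2 and Zeb1Prx1 replicate 3 are both red for Hoxa11, Hoxd8, Hoxd9 and Hoxd10, while Hoxb6 to Hoxb9 are blue in Zeb1Prx1 replicates 2 and 3.

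Libraries of a genotype differed from each other along the clusters. WT replicate 2 was the highest WT library and Zeb1Prx1 replicate 3 the highest mutant library for 6 of 21 tested members (28.6%), against 13.3% of all tested genes. These were 4 of 8 in Hoxa, 2 of 2 in Hoxd, 0 of 8 in Hoxc and 0 of 3 in Hoxb. The same 2 libraries were highest for Pdgfra, the receptor that marks fibroblastic stroma, at 2.65, 30.2 and 15.1 FPKM in WT libraries, against 8.92, 4.73 and 47.0 in Zeb1Prx1 libraries. They were also highest for the matrix proteoglycan Dcn, at 3.30, 204 and 30.2 against 47.1, 31.1 and 576 FPKM. Of the 12 stromal markers, 5 had both of these libraries highest (Pdgfra, Dcn, Lum, Col3a1 and Ly6a) and 7 did not, Prrx1 and Col1a1 among them. The stromal sum was highest in the same 2 libraries. So was the chondrocyte sum, at 208 FPKM in WT replicate 2 and 2454 in Zeb1Prx1 replicate 3, with 4 of 7 tested chondrocyte markers highest in both. Of the tested osteoblast and macrophage markers, 0 of 9 and 0 of 18 were highest in both. The part of stromal and chondrocyte RNA in these Hox values was not tested.

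The genes that act with or on Hox clusters were taken from lists, and limma called 0 members of any of them, as voom did. At an unadjusted p under 0.05 there were 0 of 5 cofactors, 0 of 17 Polycomb genes, 2 of 12 Trithorax genes (both lower), 2 of 10 upstream regulators (both higher) and 2 of 8 limb factors (both higher), against 8.15% of all genes higher and 6.98% lower. Among the 5 tested TALE cofactors, all had log2 changes below 0, against 48.1% of all genes, led by Pbx3 at 2.72 ± 0.227 against 2.21 ± 0.0985 FPKM, without overlap (limma adjusted p = 0.446). Polycomb repressors divided into 8 above and 9 below 0 of 17. Phf1, with the smallest p of these, was higher at 13.8 ± 2.23 against 18.6 ± 2.78 FPKM and overlapped (limma adjusted p = 0.338). Jarid2, which helps target the complex, was 2.62 ± 0.443 against 1.80 ± 0.389 FPKM without overlap (adjusted p = 0.357 by limma), and the catalytic Ezh2 was 2.96 ± 1.27 against 2.67 ± 0.514.

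Trithorax and COMPASS genes, which keep active genes marked on histone H3, lay below 0 for 10 of 12, against 48.1% of all genes. The H3 methyltransferase gene Kmt2d had 9.07, 13.3 and 11.5 FPKM in WT libraries, against 8.71, 3.73 and 6.69 in Zeb1Prx1 libraries (limma adjusted p = 0.299). Kmt2b, of the same family, had 6.76, 8.52 and 7.85 against 6.64, 3.48 and 5.24 FPKM (limma adjusted p = 0.321). For both, Zeb1Prx1 replicate 1 lay just under the WT range and replicate 2 lowest. Kmt2a, Kmt2c and Ash1l were also lowest in replicate 2, at 2.24, 1.71 and 2.95 FPKM, whereas Dpy30 was highest there, at 19.6. That library had the highest FPKM sum, 372566 against 278987 to 312038 in the others. It also had the fewest genes with a fragment (20102). The part of such library differences in the Trithorax values was not tested. Kdm6a, which removes the Polycomb mark, and the COMPASS core subunit Rbbp5 were lower without overlap, as were Kmt2d and Kmt2b. That made 4 of 12, against 11.8% of all genes. Kdm6a lies on the X chromosome, and sex cannot be told apart from genotype here.

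Retinoic acid opens Hox clusters in embryos, and 2 of 10 tested genes of the retinoic acid, Cdx and related list were higher at an unadjusted p under 0.05, against 8.15% of all genes. The list divided into 5 above and 5 below 0. Crabp2, which carries retinoic acid to its receptors, had 4.09, 3.69 and 3.84 FPKM in WT libraries, against 6.26, 15.7 and 10.2 in Zeb1Prx1 libraries (log2 change 1.18, SE 0.29, limma adjusted p = 0.264). The receptor Rarg had 10.8, 17.0 and 13.6 FPKM against 22.5, 18.6 and 26.6, a log2 change of 0.68 (SE 0.21, limma adjusted p = 0.278). The genotypes did not overlap for either. Cyp26b1, which degrades retinoic acid in limb mesenchyme, had 2.51 ± 1.36 against 5.44 ± 2.55 FPKM and overlapped. Crabp1 went the other way, at 14.2 ± 13.5 against 5.20 ± 8.80 FPKM, and overlapped (log2 change -1.82, SE 1.31, limma adjusted p = 0.491). Cdx1, Cdx2 and Cdx4, activators of central Hox genes, had no fragment in any library.

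Among limb position factors, hindlimb genes were detected and the forelimb selector was not above a low level. Pitx1, the hindlimb selector, had 7.59, 8.08 and 3.58 FPKM in WT libraries, against 11.6, 20.1 and 44.6 in Zeb1Prx1 libraries, without overlap (log2 change 1.70, SE 0.49, limma adjusted p = 0.275). Tbx15, a limb mesenchyme factor, had 17.5, 19.7 and 18.8 FPKM against 25.5, 30.3 and 44.4, also without overlap (limma adjusted p = 0.273). The forelimb gene Tbx5 stayed at or under 0.532 FPKM in every library, and the hindlimb gene Tbx4 ranged from 0.337 to 3.56 FPKM. Of the 8 tested factors, 4 were above 0 and 4 below.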

How the data were processed

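RNA of 3 WT and 3 Zeb1Prx1 libraries was read on a Novaseq instrument with paired ends of 150 bases, per the labels. The authors deposited FPKM for each gene and library beside gene name, biotype, coordinates and length, per the file headers. Per the submitters' processing notes the genome was mm10. For aligner, counter and strand setting, nothing is given in the sources used here. Fragment numbers were recovered from FPKM times gene length, which came out as whole multiples of a fixed unit in each library for 127408 of 127408 values above 0 (relative tolerance 1e-06). The library size implied by that unit was 0.973 to 1.04 times the fragments assigned to genes. The median-of-ratios factor of the deposited FPKM was 1.01 in every library, so the values were already level by that measure. That scaling therefore left every value as it was and could not change a result.

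Limma 3.58.1 (R 4.3.3) was fitted with an intensity trend to log2(FPKM + 1) over the 12534 genes with at least 1 FPKM in at least 3 of 6 libraries, without a block, and adjusted by Benjamini-Hochberg over these genes with a threshold of 0.05. The pseudocount of 1 makes log2 changes of low genes too small. The fit was tested on simulated data for the direction of planted changes. Values were drawn independently for each gene, without differences shared across a library. How often real changes would be called in these data was therefore not measured. The members, the gene lists and the rule for naming were chosen with earlier results of these data known. Named in full were the 8 tested members with the smallest p, the most abundant member of each cluster, the tested members of groups 10 and 11, and up to 4 members of each list. The values of 1 member and some homeobox sequences are not reported here. Of the 40 Hox rows, 38 had the same coordinates in GENCODE M21. Alternatives were a pseudocount of 0.1, no filter, 2 other scalings, library weights, a replicate block, leaving out each library and voom on recovered fragments. Counts without 1 library for groups that do not overlap, and for the direction of the means, were chosen after seeing the data.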

Additional observations from a re-analysis of the deposited data

How the results depend on the processing

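Library weights, the largest being 2.82 for Zeb1Prx1 replicate 3, let Hoxa9 and Hoxb9 pass. They gave 447 genes past the threshold over all genes, against 0 in the limma fit reported. Leaving out 1 library gave 0 to 1, the 1 being Omd without Zeb1Prx1 replicate 2. Leaving out 1 library moved the median log2 change from 0.038 to 0.32 over the Hox genes tested, from 0.28 to 0.71 in Hoxa, from 0.036 to 0.25 in groups 1 to 4 and from -0.11 to 0.51 in groups 5 to 8. It moved the members higher without overlap from 5 to 8 and those lower from 1 to 2. Such counts can only stay or rise when a library is left out. Without a filter the median was 0.057 over the 35 Hox rows with a fragment, 0.24 in Hoxa and -0.044 in groups 5 to 8. The Hoxb median of -0.58 was -1.87 with a pseudocount of 0.1 and -2.27 with voom.

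Members with small changes turned sign. Library weights gave 0.22 for Hoxa6, -0.21 for Hoxb4, -0.10 for Hoxc5, -0.21 for Hoxc8 and -0.012 for Hoxc11. An equal FPKM sum gave -0.080 for Hoxb4, -0.075 for Hoxc5 and -0.0085 for Hoxc11, and voom gave -0.027 for Hoxb4 and -0.030 for Hoxc5. Without 1 library, the range was -0.35 to 0.43 for Hoxa6, -0.11 to 0.23 for Hoxb4, -0.11 to 0.10 for Hoxc5, -0.29 to 0.13 for Hoxc6, -0.16 to 0.53 for Hoxc8, -0.35 to 0.49 for Hoxc11 and -0.060 to 0.82 for Hoxd9. For these the cause was not tested.

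An equal FPKM sum moved the median of all genes from 0.017 to -0.12 and changed the split at an unadjusted p under 0.05 from 1022 higher and 875 lower to 612 higher and 1279 lower. The Hox median then was 0.14, with 13 of 21 members above 0, and the cluster medians kept their direction (0.48 in Hoxa and -0.61 in Hoxb). The replicate numbers do not pair the libraries (correlations of same-numbered deviations 0.029, -0.41 and 0.080). With the replicate block, 0 genes passed, 775 were higher and 572 lower at an unadjusted p under 0.05, and no member changed its call.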

Other observations

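Noncoding genes inside the cluster intervals were also measured, and 0 were called by limma or voom, with 3 of the 6 tested at an unadjusted p under 0.05 by limma (2 higher, against 8.15% of all genes, and 1 lower, against 6.98%). Of 9 genes annotated between the ends of Hoxb besides its members, 2 passed the filter. The lincRNA gene Gm53 (chr11:96251105-96264868, plus strand) had 1.55, 2.16 and 3.08 FPKM in WT libraries, against 1.09, 0.153 and 0.247 in Zeb1Prx1 libraries, without overlap (log2 change -1.15, SE 0.29, limma adjusted p = 0.264). Zeb1Prx1 replicate 1 again lay nearest to WT, as for Hoxb9, whose start lies downstream of Gm53 on the same strand. The other, the miRNA gene Mir196a-1, had 4.76 ± 3.66 against 3.09 ± 3.39 FPKM (n = 3 each) and overlapped.

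Of 20 such genes in Hoxa, 4 passed the filter. Hotairm1, an antisense RNA known for its part in activating Hoxa genes in myeloid cells, had 1.39, 2.66 and 1.46 FPKM in WT libraries, against 2.43, 4.01 and 4.54 in Zeb1Prx1 libraries, which overlapped through WT replicate 2 (log2 change 0.71, SE 0.25, limma adjusted p = 0.298). Gm15050 had 1.68 ± 1.05 against 3.55 ± 1.75 FPKM and overlapped. Gm27477, a short RNA gene, had 2.58 ± 0.522 against 5.17 ± 1.75 FPKM, without overlap but from 18 and 37 fragments in all. Gm27861 had 2.44 ± 0.619 against 2.43 ± 1.26 FPKM.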
